A study of Mus musculus with 16 samples.

Results

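Neutrophil granule and calprotectin genes were followed in RNA sequencing of tdTomato-positive cells sorted from mouse lung. The set held 8 genes, S100a8, S100a9, Retnlg, Ngp, Camp, Ltf, Lcn2 and Csf3r, of 49437 genes used in the deposited tables. They were chosen by gene symbol on the FPKM they show across the 4 groups of these same mice. Their levels and the differences between the groups are therefore given as a description, without a test. Sequencing covered 16 mice in 4 groups of 4. The Acta2-tdT mice carried Acta2-CreERT2; tdTomatoflox, and the Pdgfra-tdT mice carried Pdgfra-CreERT2; tdTomatoflox, so that all 16 animals had a tamoxifen-dependent Cre and a red fluorescent reporter. In each line 4 mice (numbered 1 to 4 in the labels) received saline and 4 mice (numbered 5 to 8) received bleomycin, an agent that injures the lung and leads to fibrosis. All mice were 11 weeks old, and the lungs were collected 14 days after the agent. Acta2-tdT mice were given tamoxifen in the food at 400 mg/kg from 5 days after instillation, whereas Pdgfra-tdT mice received 5 injections of 3 mg at 6 weeks of age. The lines thus differed in the route, dose and time of labelling as well as in the promoter, and these cannot be told apart. Cre was driven by the promoter of Acta2 (smooth muscle actin) or of Pdgfra (a growth factor receptor of fibroblasts), and a cell that was labelled keeps the label afterwards. The methods of the study describe sorting of tdTomato-positive cells from the left lobe, and the full gating strategy was not used here.

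Neutrophils are short-lived white blood cells that leave the bone marrow fully grown and enter injured tissue. They store antimicrobial proteins in granules that are filled in order during maturation. The genes of the azurophil and specific granules are read in the marrow and silenced in mature blood cells, while S100a8 and S100a9 stay abundant until late. S100A8 and S100A9 form calprotectin, a calcium- and zinc-binding complex that fills the neutrophil cytosol. Ngp, Camp (cathelicidin) and Ltf (lactoferrin) encode proteins of the specific granules, Lcn2 encodes a protein that binds bacterial iron carriers, Retnlg encodes a secreted resistin-like protein, and Csf3r encodes the receptor for the growth factor G-CSF.

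The values are FPKM, fragments scaled to the length of the transcript and to all mapped fragments, which are levels per length and may be compared between genes. The whole table differed between the groups. The FPKM of nuclear protein-coding genes summed to between 35602 and 57788 in the Acta2-tdT saline mice, 231058 and 463127 in the Acta2-tdT bleomycin mice, 29964 and 59840 in the Pdgfra-tdT saline mice, and 28512 and 137952 in the Pdgfra-tdT bleomycin mice. Each member is therefore given both as deposited and scaled, which means multiplied so that nuclear protein-coding genes add up alike in every mouse. With saline each line held the higher level of its own marker, with Acta2 between 139 and 314 FPKM in Acta2-tdT saline mice and between 2.59 and 11.0 in Pdgfra-tdT saline mice. Pdgfra itself was at 0.273 to 0.562 and 2.14 to 3.82 FPKM in the same groups, and with bleomycin it stood at 2.49 to 11.9 in Acta2-tdT and 0.977 to 2.45 in Pdgfra-tdT mice. As deposited with bleomycin, Pdgfra thus ran against the name of the line, with every Acta2-tdT mouse above every Pdgfra-tdT mouse. Scaled, Pdgfra was at 0.836 to 2.02 and 7.55 to 12.9 with saline, and at 1.37 to 3.28 and 2.27 to 6.06 with bleomycin, in Acta2-tdT and Pdgfra-tdT mice, so that the bleomycin groups overlapped.

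The members lie at 5 chromosomes, with neighbours among them. In GRCm38, the build of the deposited tables, S100a8 is at chr3:90668978-90670035 on the plus strand and S100a9 at chr3:90692632-90695721 on the minus strand, 22.6 kb apart. Camp (chr9:109847379-109849617, minus), Ngp (chr9:110419747-110423012, plus) and Ltf (chr9:111019271-111042767, plus) follow each other with gaps of 570.1 and 596.3 kb. Retnlg is at chr16:48872608-48874498 (plus), Lcn2 at chr2:32384633-32387797 (minus) and Csf3r at chr4:126024550-126044440 (plus).

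RefSeq promoter windows of GRCm38.p6, 250 bases before to 50 after the gene start, were matched for 8 of 8 members. They were searched on both strands for TTGCNNAA, a form of the site of C/EBP factors, and for GAGGAAG, a form of the site of PU.1, since both families of factors act in granulocyte development. The motifs share no letters in any member. TTGCNNAA was found in 5 members (Lcn2, S100a9, Ngp, Ltf and Retnlg) and in 10.8% of all 32851 promoter windows. GAGGAAG was found in 3 members (Lcn2, S100a8 and Csf3r) and in 13.6% of all windows. Camp held neither. A match is a run of letters and not a site known to bind the factor. The 250 bases before the start are printed for the calprotectin pair, which kept a nearly fixed ratio in the Acta2-tdT mice, and for Ngp and Ltf, granule genes that hold the same match, in the direction of transcription with the matches in capitals.
S100a8, chr3:90668821-90669070 (plus): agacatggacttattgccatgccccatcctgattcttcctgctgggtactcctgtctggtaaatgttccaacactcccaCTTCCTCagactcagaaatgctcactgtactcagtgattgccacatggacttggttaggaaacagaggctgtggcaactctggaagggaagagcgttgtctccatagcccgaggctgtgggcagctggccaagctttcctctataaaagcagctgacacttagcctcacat
S100a9, chr3:90695722-90695971 (minus): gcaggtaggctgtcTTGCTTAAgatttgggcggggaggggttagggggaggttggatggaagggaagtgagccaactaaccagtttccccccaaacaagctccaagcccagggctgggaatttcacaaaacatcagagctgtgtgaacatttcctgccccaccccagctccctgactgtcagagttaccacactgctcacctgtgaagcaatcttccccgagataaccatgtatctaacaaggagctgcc
Ngp, chr9:110419558-110419807 (plus): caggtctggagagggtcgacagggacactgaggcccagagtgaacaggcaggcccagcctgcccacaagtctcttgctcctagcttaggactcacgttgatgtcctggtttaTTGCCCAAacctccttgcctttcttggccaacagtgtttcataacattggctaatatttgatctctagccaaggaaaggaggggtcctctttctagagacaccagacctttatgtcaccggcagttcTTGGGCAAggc
Ltf, chr9:111019042-111019291 (plus): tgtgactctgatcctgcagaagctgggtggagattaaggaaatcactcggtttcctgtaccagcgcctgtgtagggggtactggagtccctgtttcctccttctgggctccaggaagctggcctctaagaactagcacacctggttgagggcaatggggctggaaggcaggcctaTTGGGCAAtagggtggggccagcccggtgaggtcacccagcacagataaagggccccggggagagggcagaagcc
Ngp and Ltf carried the same 8 letters, TTGGGCAA, and Ngp carried TTGCCCAA as well. S100a9 carried TTGCTTAA and S100a8 carried GAGGAAG on the other strand. The RefSeq starts of S100a8, Ngp and Ltf lie inside the gene models of the deposited tables, so the last bases printed for them belong to the gene in those models.

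Calprotectin genes stood among the highest of the nuclear protein-coding genes in the Acta2-tdT saline mice. S100a8 was at 509, 460.5, 892 and 726 FPKM in the 4 Acta2-tdT saline mice and at 3571, 1418, 699.7 and 1435 in the 4 Acta2-tdT bleomycin mice. In Pdgfra-tdT mice it was at 27.2, 13.7, 11.1 and 10.9 FPKM with saline and at 77.1, 15.6, 24.2 and 2.22 with bleomycin. The lowest Acta2-tdT mouse thus lay above the highest Pdgfra-tdT mouse under either agent. Among nuclear protein-coding genes S100a8 ranked 4, 4, 4 and 6 in the Acta2-tdT saline mice, where it alone held between 1.26% and 1.84% of their summed FPKM. It ranked 7, 14, 69 and 27 in the Acta2-tdT bleomycin mice, and 38 to 832 and 158 to 763 in the Pdgfra-tdT mice with saline and bleomycin. The group means were 647 ± 200.1, 1781 ± 1242, 15.7 ± 7.77 and 29.8 ± 32.8 FPKM (SD, n = 4), Acta2-tdT before Pdgfra-tdT and saline before bleomycin. In bulk libraries of this kind, fewer cells of a type and less RNA per cell cannot be told apart.

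S100a9, the partner subunit, followed S100a8 from mouse to mouse. It ranked 10, 9, 9 and 14 among nuclear protein-coding genes in the Acta2-tdT saline mice and 15, 26, 247 and 79 in the Acta2-tdT bleomycin mice. Its levels were 214, 215, 404 and 281 FPKM in Acta2-tdT saline mice and 1714, 693, 283 and 668 in Acta2-tdT bleomycin mice. In Pdgfra-tdT mice S100a9 was at 9.05, 9.09, 5.78 and 4.04 FPKM with saline and at 67.0, 6.66, 6.09 and 1.55 with bleomycin. Its means were 278 ± 89.4 and 839 ± 612 FPKM in Acta2-tdT mice (SD, n = 4) with saline and bleomycin. Mouse 5 was the highest of its group in both bleomycin groups, for S100a8 and S100a9 alike. The ratio of S100a8 to S100a9 was nearly fixed in the Acta2-tdT libraries, between 2.14 and 2.58 with saline and between 2.05 and 2.48 with bleomycin. It ran from 1.51 to 3.01 and from 1.15 to 3.97 in the Pdgfra-tdT libraries, where both genes were low.

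**Figure D1:**
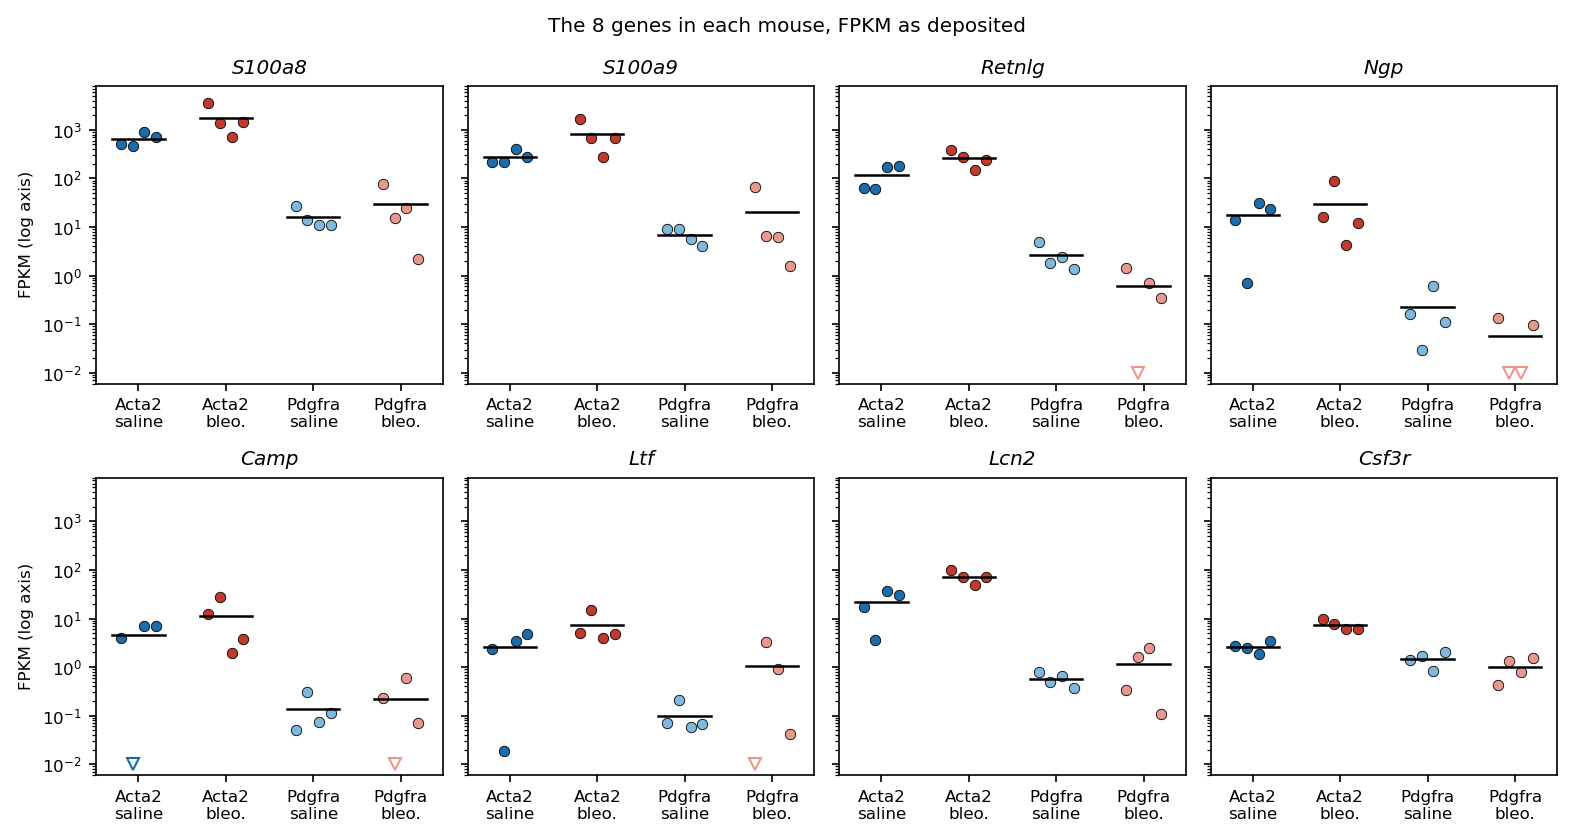
FPKM as deposited of the 8 genes on a log axis, with 1 point per mouse, 4 mice per group, a horizontal bar at the group mean and open triangles for mice in which the gene is listed at 0. S100a8 spans 460.5 to 3571 FPKM in the Acta2-tdT mice and 2.22 to 77.1 in the Pdgfra-tdT mice, while the saline groups of Csf3r overlap.

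Retnlg, the gene of a secreted resistin-like protein, was far higher in Acta2-tdT than in Pdgfra-tdT mice. It was at 62.5, 59.5, 171 and 179.6 FPKM in Acta2-tdT saline mice and at 388, 274, 146 and 235 in Acta2-tdT bleomycin mice. In Pdgfra-tdT mice it was at 4.99, 1.81, 2.38 and 1.39 FPKM with saline, and with bleomycin at 1.45, 0.704 and 0.346 in mice 5, 7 and 8 and listed at 0 in mouse 6. Relative to S100a8, Retnlg held 123 to 247 FPKM per 1000 FPKM of S100a8 in Acta2-tdT saline mice, 109 to 209 in Acta2-tdT bleomycin mice and 128 to 215 in Pdgfra-tdT saline mice. These 3 groups overlapped. In Pdgfra-tdT bleomycin mice 5, 6 and 7 the ratio was 18.8, 0 and 29.1, and in mouse 8, where S100a8 itself was at 2.22 FPKM, it was 156.

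The specific granule genes were far lower and varied widely between the mice of a group. Ngp, a marker of granule-forming neutrophils, was at 13.9, 0.714, 31.2 and 24.0 FPKM in Acta2-tdT saline mice and at 15.8, 89.4, 4.32 and 11.9 in Acta2-tdT bleomycin mice. In Pdgfra-tdT mice it reached at most 0.604 FPKM, and it was listed at 0 in bleomycin mice 6 and 7. Acta2-tdT saline mouse 2 was low and Acta2-tdT bleomycin mouse 6 high for this gene.

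Camp, the gene of the antimicrobial peptide cathelicidin, was at 3.92, 7.12 and 6.96 FPKM in Acta2-tdT saline mice 1, 3 and 4 and listed at 0 in mouse 2. With bleomycin it was at 12.6, 27.3, 1.95 and 3.88 FPKM in Acta2-tdT mice. Its highest value among the Pdgfra-tdT mice was 0.591. Ltf, which encodes the iron-binding lactoferrin, was at 2.39, 0.0190, 3.41 and 4.72 FPKM in Acta2-tdT saline mice and at 5.05, 15.01, 4.05 and 4.78 in Acta2-tdT bleomycin mice. Mouse 2 was again the lowest with saline and mouse 6 the highest with bleomycin. In the Pdgfra-tdT bleomycin mice Ltf was at 3.21 FPKM in mouse 6 and 0.910 in mouse 7, where Ngp was listed at 0, and it was listed at 0 in mouse 5 and at 0.0412 in mouse 8.

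Summed, Ngp, Camp and Ltf held 39.7, 1.59, 46.7 and 49.2 FPKM per 1000 FPKM of S100a8 in Acta2-tdT saline mice 1 to 4. The same ratio was 9.37, 92.9, 14.7 and 14.3 in Acta2-tdT bleomycin mice 5 to 8. Saline mouse 2 held 460.5 FPKM of S100a8 beside 509 to 892 in the other saline mice, so that calprotectin was not low in it to the same degree. The sum in saline mouse 2 was 0.733 FPKM against 20.2 to 41.7 in the other saline mice of the line. With bleomycin the sum was 33.4, 131.7, 10.3 and 20.5 FPKM, and the mouse with the highest S100a8 was not the mouse with the highest granule sum.

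**Figure D2:**
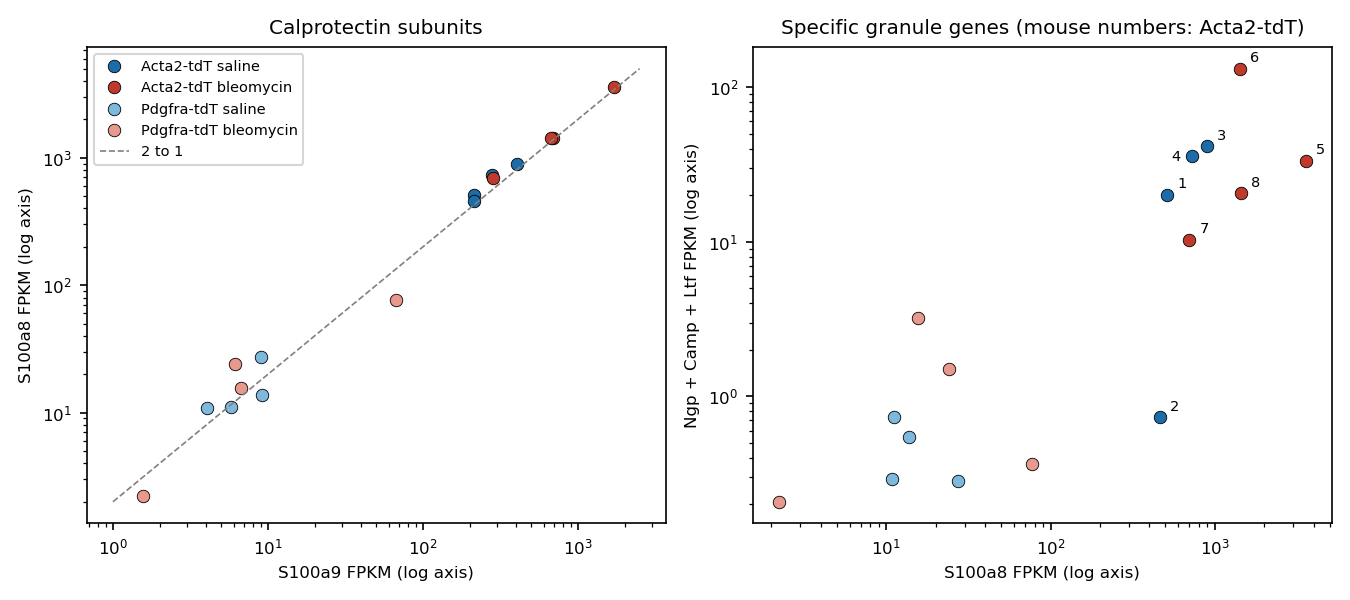
Left, S100a8 against S100a9 FPKM in the 16 mice, both axes log, with a dashed line at 2 to 1. Right, the summed FPKM of Ngp, Camp and Ltf against S100a8 FPKM, with the label numbers of the Acta2-tdT mice; saline mouse 2 lies at 0.733 FPKM and bleomycin mouse 6 at 131.7, while their S100a8 levels are 460.5 and 1418.

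Lcn2, whose product is made by neutrophils and by injured epithelium, was at 17.5, 3.53, 36.6 and 30.8 FPKM in Acta2-tdT saline mice. With bleomycin it was at 98.6, 72.9, 48.2 and 71.7 FPKM in the same line, above every saline mouse as deposited. Scaled, Lcn2 was at 12.7 to 96.3 with saline and 14.1 to 40.3 with bleomycin, so that the groups overlapped and the log2 difference was -0.86. In Pdgfra-tdT mice it was at 0.810, 0.495, 0.641 and 0.370 FPKM with saline and at 0.332, 1.64, 2.46 and 0.110 with bleomycin. The Pdgfra-tdT groups overlapped. Summed over 9 epithelial marker genes, FPKM ran from 46.6 to 798 in Acta2-tdT saline, 349.9 to 1583 in Acta2-tdT bleomycin, 32.8 to 134 in Pdgfra-tdT saline and 41.5 to 224 in Pdgfra-tdT bleomycin mice. Scaled, the sums were 167 to 2097, 102 to 635, 69.9 to 570.5 and 111 to 1001 in the same order, which overlapped in all 4 groups, and their part in the level of Lcn2 was not tested.

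Csf3r, the only receptor among the members, was low, between 0.424 and 9.55 FPKM over the 16 mice. It was at 2.68, 2.45, 1.87 and 3.51 FPKM in Acta2-tdT saline mice and at 9.55, 7.69, 6.12 and 6.16 in Acta2-tdT bleomycin mice. In Pdgfra-tdT mice it was at 1.40, 1.69, 0.827 and 2.07 FPKM with saline and at 0.424, 1.31, 0.792 and 1.52 with bleomycin. The saline groups of the lines overlapped for Csf3r, and it was the member least like the mean pattern of the 8. On scaled log2 values centred over the 16 mice, its root mean square difference from that mean was 1.62, against 0.581 for Lcn2, the member closest to it.

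With saline, the difference between the lines was seen in calprotectin, Retnlg, Ngp and Lcn2 and hardly in Csf3r. On the log2(FPKM + 1) scale, Acta2-tdT minus Pdgfra-tdT, it was 5.32 for S100a8, 5.14 for S100a9, 4.93 for Retnlg, 3.50 for Lcn2, 3.31 for Ngp, 1.90 for Camp, 1.47 for Ltf and 0.55 for Csf3r. The pooled SD of the members within the groups was between 0.29 and 1.38 on this scale. In 5 of 8 members every Acta2-tdT mouse exceeded every Pdgfra-tdT mouse. Over the 8153 genes tested in this comparison, 6.56% did so, and the rule that chose the members used this contrast. The genes tested had at least 4 of 8 mice with an FPKM of 1 or more. Ngp, Camp and Ltf did not pass this filter and 5 members did. The median of the 8 members was 3.41, against 0.17 over all genes tested, and scaling the FPKM changed them to 4.15 and 0.06. The same 5 members, S100a8, S100a9, Retnlg, Ngp and Lcn2, had groups that did not overlap after scaling, beside 7.75% of genes. Without saline mouse 2 of the Acta2-tdT line the members' median was 4.20.

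With bleomycin, all 8 members were higher in every Acta2-tdT mouse than in every Pdgfra-tdT mouse as deposited, as were 56.8% of the 11995 genes tested. The log2 differences were 7.32 for Retnlg, 6.38 for S100a8, 6.13 for S100a9, 5.22 for Lcn2 and 4.09 for Ngp, and between 2.07 and 2.84 for Csf3r, Ltf and Camp. Their median was 4.66, and that of all genes was 1.81. After scaling, the groups remained apart for 5 members, against 18.9% of genes, with a median of 2.96 for the members and 0.26 for all genes. The scaled difference stayed high for Retnlg (5.45), S100a8 (3.81) and S100a9 (3.63), whereas it was 0.45 for Ltf and 0.06 for Csf3r.

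**Figure D3:**
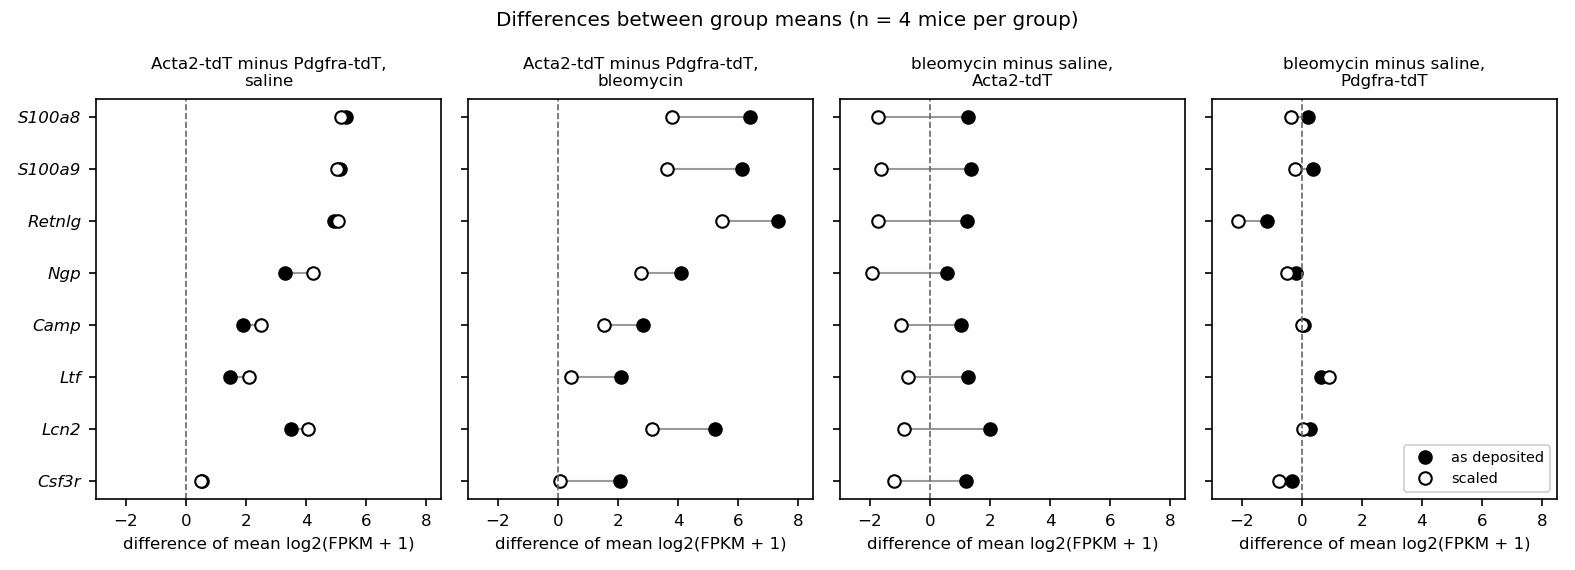
Log2 differences of group means of log2(FPKM + 1) for the 8 genes in the 4 comparisons, as deposited and scaled. The bleomycin differences in Acta2-tdT mice lie between 0.58 and 2.01 as deposited and between -1.94 and -0.75 when scaled.

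Bleomycin in the Acta2-tdT line gave a direction that depended on the scale. As deposited, the log2 differences of bleomycin minus saline ran from 0.58 for Ngp to 2.01 for Lcn2, with a median of 1.25. The median of the 12523 genes tested was 1.76, above that of the members. Only Lcn2 and Csf3r had groups that did not overlap as deposited, 2 of 8 members, against 67.8% of all genes tested. After scaling, all 8 differences were negative, from -1.94 for Ngp and -1.73 for Retnlg to -0.75 for Ltf, with a median of -1.41 against -0.03 for all genes. Scaled, 3 members were lower in every bleomycin mouse (S100a8, Retnlg and Csf3r), as were 29.6% of genes. The scaled levels of S100a8 were 1762, 1650.3, 2345 and 1603 with saline and 1432, 783, 205 and 395 with bleomycin. Without Acta2-tdT bleomycin mouse 6 the deposited difference of Ngp was -0.19, and without saline mouse 2 it was -0.35, so that its sign rested on each of these mice.

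The members' share of nuclear protein-coding FPKM was 2.24%, 2.08%, 3.19% and 2.17% in Acta2-tdT saline mice. It was 1.83%, 1.12%, 0.274% and 0.526% in Acta2-tdT bleomycin mice, all below the saline mice. In Pdgfra-tdT mice the share was 0.146%, 0.0911%, 0.0358% and 0.0527% with saline and 0.106%, 0.0571%, 0.0841% and 0.0209% with bleomycin. The Pdgfra-tdT groups overlapped, and each of their mice lay below the lowest Acta2-tdT mouse.

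**Figure D4:**
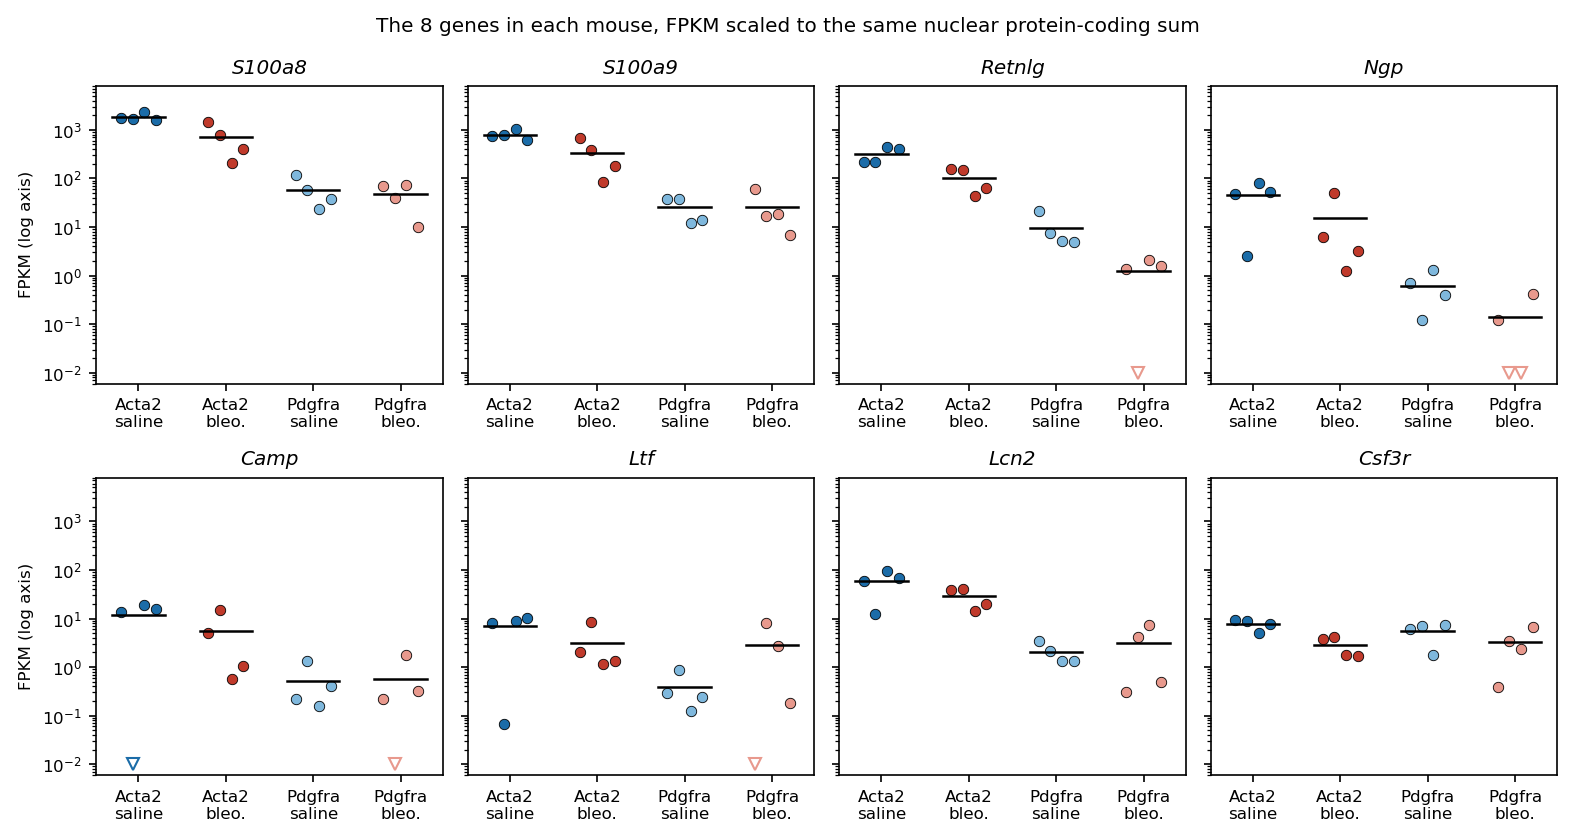
The 8 genes in each mouse, scaled so that nuclear protein-coding genes add up alike, on a log axis, with 4 mice per group, bars at the means and open triangles for genes listed at 0. Scaled S100a8 lies between 1603 and 2345 in Acta2-tdT saline mice and between 205 and 1432 in Acta2-tdT bleomycin mice.

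In the Pdgfra-tdT line bleomycin separated no member as deposited, where 1.43% of the 7275 genes tested were higher and 1.15% lower in every bleomycin mouse. The log2 differences ran from -1.15 for Retnlg to 0.63 for Ltf, and their median was 0.15 beside 0.02 for all genes. Only 4 of the 8 members passed the filter in this comparison, and Ngp, Camp, Ltf and Lcn2 did not. After scaling, Retnlg alone was lower in every bleomycin mouse, with a difference of -2.14, and 0.962% of genes were. Scaled Retnlg was at 21.3, 7.68, 5.08 and 4.92 in the saline mice and at 1.34, 2.11 and 1.55 in bleomycin mice 5, 7 and 8, with mouse 6 at 0.

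Genes of white blood cells in general and of macrophages were set beside the members. Summed over 7 pan-leukocyte markers, FPKM ran from 178 to 399 in Acta2-tdT saline, 1576 to 3649 in Acta2-tdT bleomycin, 14.7 to 40.5 in Pdgfra-tdT saline and 63.2 to 484 in Pdgfra-tdT bleomycin mice. Scaled, these sums were 639 to 881, 531 to 1068, 31.4 to 172 and 283 to 988, so that saline and bleomycin overlapped in the Acta2-tdT line and the lines overlapped with bleomycin. The sums of 10 macrophage markers were 35.3 to 255, 1220 to 5680, 7.79 to 28.9 and 31.8 to 302 in the same order of groups, and 126 to 563, 489 to 1663, 33.1 to 102 and 142 to 829.5 when scaled, and none of the 10 was at 0 in a whole group. Against Tyrobp, an adaptor of all myeloid cells, S100a8 stood at 5.32, 6.40, 7.44 and 4.32 in Acta2-tdT saline mice and at 6.52, 2.31, 0.628 and 2.11 in Acta2-tdT bleomycin mice. The ratio was 0.921 to 2.49 in Pdgfra-tdT saline mice and 0.0753 to 0.377 in Pdgfra-tdT bleomycin mice, which did not overlap. Against C1qb, a complement gene of macrophages, S100a8 stood at 5.80 to 29.0 and 0.241 to 5.73 in Acta2-tdT mice, and at 0.804 to 7.96 and 0.0995 to 0.728 in Pdgfra-tdT mice, with saline and bleomycin in that order. The saline and bleomycin mice did not overlap in either line. How far the mix of white blood cells in each sort set the members' levels was not tested.

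Other neutrophil genes were tested, from a list of 26 genes that are found mainly in neutrophils and 43 that other myeloid cells share. Gene-wise tests used limma on log2(FPKM + 1) with Benjamini-Hochberg adjustment over all genes tested. With saline, 4 of the 8 tested genes of the first kind were higher in Acta2-tdT mice and none lower, beside 2.72% of all 8153 genes. The 4 were Pglyrp1, Stfa2l1, Asprv1 and Wfdc21. Of the shared kind 12 of 28 were higher. In the Pdgfra-tdT saline mice 18 of the 26 and 22 of the 43 genes were under 1 FPKM in every mouse. In the Acta2-tdT saline mice 11 and 7 were. A gene could thus pass the filter through the Acta2-tdT mice alone, and such a gene could hardly be called lower. The list medians were 2.01 and 1.12 on the log2 scale, beside 0.17 for all genes. Without the filter 1 of 26 and 2 of 43 were called, and the list medians were 0.69 and 0.95. A fit of all 16 mice called 5 shared genes. With the replicate number as a block 0 and 1 genes were called. The counts also rested on single mice. Without 1 mouse the first count was 2 to 6 and the second 2 to 20. The first fell to 2 without Acta2-tdT mouse 4, Pdgfra-tdT mouse 2 or Pdgfra-tdT mouse 4. The second was 2 without Acta2-tdT mouse 3, Pdgfra-tdT mouse 2 or Pdgfra-tdT mouse 4, was 4 without Pdgfra-tdT mouse 1 and 7 without Acta2-tdT mouse 4, and rose to 20 without Pdgfra-tdT mouse 3.

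Some saline calls held whichever mouse was left out. Pglyrp1, a peptidoglycan-binding protein of granules, was at 15.1 to 27.2 FPKM in Acta2-tdT and 0.538 to 1.88 in Pdgfra-tdT saline mice, a log2 difference of 3.42 (SE 0.34, adjusted p = 0.00281). Il1b, the gene of interleukin-1 beta, was at 11.1 to 31.6 and 0.343 to 0.690 FPKM, a difference of 3.74 (SE 0.35, adjusted p = 0.00225), and it met the filter through the Acta2-tdT mice alone. Hp, which encodes haptoglobin, differed by 3.47 (SE 0.42, adjusted p = 0.00560). Other neutrophil genes of this comparison, Slpi, Lsp1, Wfdc21, Clec4d and Pilra, lost the call without at least 3 of the 8 mice in turn.

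With bleomycin, 13 of 14 tested genes of the first kind and 37 of 40 shared genes were higher in Acta2-tdT mice as deposited, as were 71% of the 11995 genes tested. Their medians were 3.03 and 2.50, against 1.81 for all genes. Many of them passed the filter through the Acta2-tdT mice alone, since 17 of the 26 genes of the first kind were under 1 FPKM in every Pdgfra-tdT bleomycin mouse, against 6 in the Acta2-tdT bleomycin mice. Without the filter 13 of 26 and 32 of 43 were higher, with medians of 1.57 and 2.29. Ifitm6, an interferon-induced membrane protein gene, was at 17.7 to 50.2 FPKM in Acta2-tdT and at most 0.0783 in Pdgfra-tdT bleomycin mice, a difference of 5.06 (SE 0.46, adjusted p = 4.11e-05). Pglyrp1 was at 31.1 to 98.3 FPKM against at most 0.305, a difference of 5.65 (SE 0.51, adjusted p = 4.11e-05). After scaling, 8 of 14 and 6 of 40 remained higher, beside 15.2% of all genes. The scaled medians were 1.38 and 0.36, against 0.26 for all genes. Pglyrp1 and Ifitm6 were still called, with scaled differences of 4.08 and 3.62, and so were Hp (3.42) and Il1r2 (1.75). Il1b (2.37) was called just under the threshold, with an adjusted p of 0.0499 by limma.

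Within the Acta2-tdT line, bleomycin raised 13 of 15 genes of the first kind and 38 of 40 shared genes as deposited, where 70.4% of the 12523 genes tested were higher and 16.3% lower. After scaling, none of the 15 genes of the first kind was higher and 3 were lower, whereas 8 shared genes were higher and 6 lower, beside 23.7% and 32.1% of all genes. The 3 were Pglyrp1 (-1.60, SE 0.43, adjusted p = 0.0111), Cxcr2 (-1.27, SE 0.32, adjusted p = 0.00852) and Trem3 (-1.24, SE 0.23, adjusted p = 0.00159). Cxcr2, the chemokine receptor that guides neutrophils into tissue, was at 3.13 to 4.49 FPKM with saline and 6.22 to 16.9 with bleomycin as deposited, a difference of 1.27 (adjusted p = 0.00425). Pglyrp1 was higher by 1.30 as deposited (adjusted p = 0.0152), a call that was lost without Acta2-tdT bleomycin mouse 5 (adjusted p = 0.0560). Among the shared genes, Chil3, Lyz2, Tlr2, Itgb2 and Anxa1 were higher on both scales, and the first pair are read strongly in lung macrophages. The 6 shared genes that were lower when scaled were Cd300lf, Fpr1, Fpr2, Il1b, Msrb1 and Slpi. The scaled median of the 40 shared genes was 0.02, beside -0.03 for all genes. Lyz2 rose from 35.9 to 174 FPKM with saline to 980.1 to 3974 with bleomycin, a difference of 4.57 as deposited (SE 0.58, adjusted p = 4.43e-05) and 1.59 when scaled (adjusted p = 0.0165).

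In the Pdgfra-tdT line none of 3 tested genes of the first kind and none of 19 shared genes passed the limma test, where 0.124% of the 7275 genes tested did. At an unadjusted p under 0.05, 1 and 10 of them passed, as did 312 of the 7275 genes. The largest differences among these were in Lyz2 (4.69, adjusted p = 0.0967), Lrg1 (4.56, adjusted p = 0.695) and Wfdc21 (3.25, adjusted p = 0.572), genes named after their values were seen. Without Pdgfra-tdT bleomycin mouse 8 these 3 passed, with adjusted p of 0.0136, 0.0183 and 0.0285, and the counts were 1 and 5. The share of all genes called in that fit is not given here. Without any other mouse none of the 3 passed, and adjusted p reached 0.378, 0.973 and 0.973. Scaled, with all mice, their adjusted p was 0.175, 0.361 and 0.355. Lyz2 was at 24.3 to 69.5 FPKM with saline and 342 to 2861 with bleomycin, while S100a8 and S100a9 overlapped between the same groups.

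**Figure D5:**
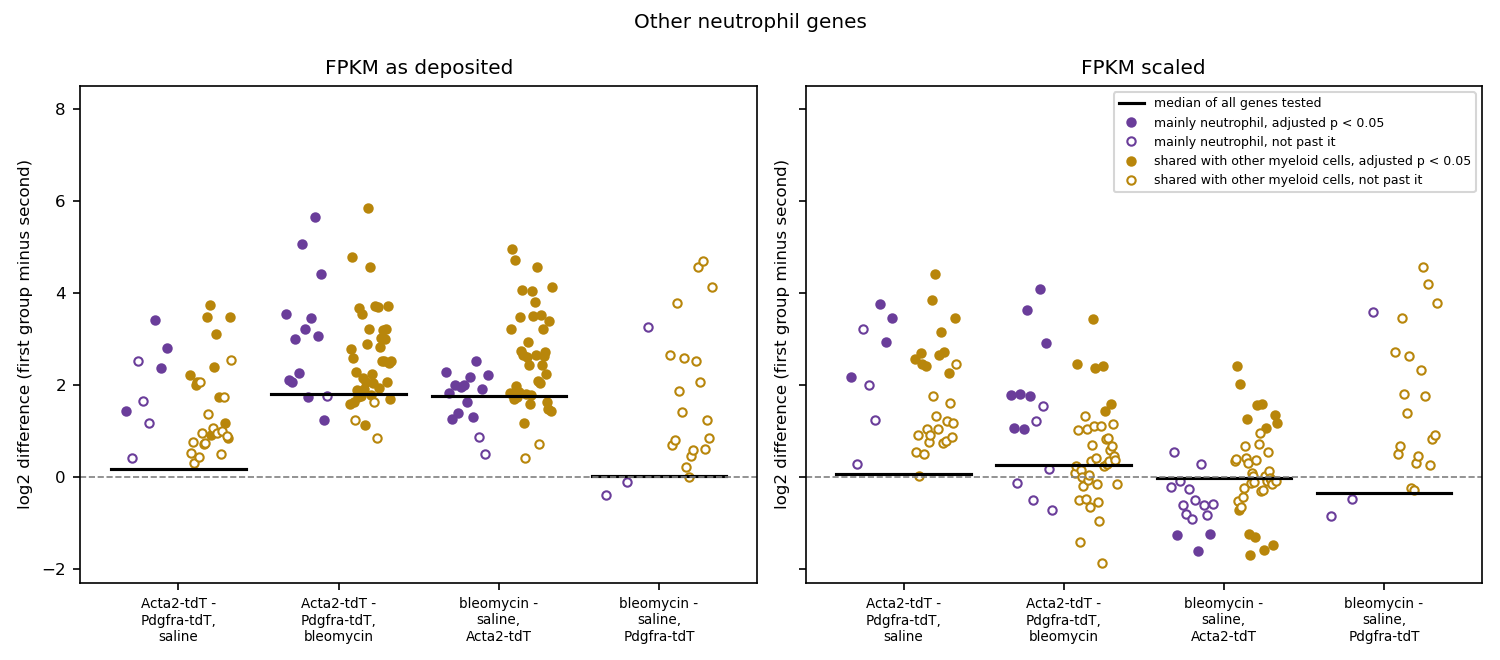
Log2 differences of the other neutrophil genes tested in the 4 comparisons, FPKM as deposited on the left and scaled on the right, with filled points for genes with an adjusted p under 0.05 by limma and a bar at the median of all genes tested. In the bleomycin comparison of the Acta2-tdT line, the genes found mainly in neutrophils have 13 filled points above 0 as deposited and 3 filled points below 0 when scaled.

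Whether both lines responded alike to bleomycin was asked of the same lists. The interaction of line and treatment in limma was positive for 11 of 15 genes of the first kind and 16 of 40 shared genes, and for 36.6% of 16605 genes. With a pseudocount of 0.1 in place of 1 it was called for 6 and 9 genes. Counted on the Pdgfra-tdT mice, only 3 of the 15 and 19 of the 40 genes passed the filter, and the others needed the Acta2-tdT mice to pass. For genes low in the Pdgfra-tdT line the pseudocount of 1 makes a change in that line smaller. After scaling, none was positive and 1 of 15 (Wfdc21) and 2 of 40 (Alox5ap and Msrb1) were negative, beside 1.19% and 2.1% of all genes. For Wfdc21 the scaled interaction was -4.18 (SE 1.04, adjusted p = 0.0445).

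Genes that mark early neutrophil precursors were low. The azurophil enzymes Mpo, Elane, Prtn3 and Ctsg, named after their values were seen, reached at most 0.525, 0.0813, 1.05 and 0.451 FPKM in any mouse. Elane and Ctsg were listed at 0 in all 4 Acta2-tdT bleomycin mice, which held Ngp at 4.32 to 89.4 FPKM. Of 7 azurophil genes in the tables at most 2 passed the filter in any comparison, and the others had no test. These were Igsf6 and Clec5a, which macrophages also express, and both were called with bleomycin between the lines and in the Acta2-tdT line as deposited, where 71% and 70.4% of all genes were higher, and neither when scaled.

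Among 11 genes of granulocyte transcription factors in the tables, Cebpb and Spi1 were higher in Acta2-tdT than in Pdgfra-tdT saline mice, 2 of 4 tested, beside 2.72% of all genes. Spi1, the gene of PU.1, was at 2.74 to 9.20 and 0.304 to 0.682 FPKM, a difference of 1.82 (SE 0.34, adjusted p = 0.0308). Cebpb was at 2.13 to 5.20 and 0.276 to 0.705 FPKM, a difference of 1.56 (SE 0.25, adjusted p = 0.0159). Both genes were under 1 FPKM in every Pdgfra-tdT saline mouse and met the filter through the Acta2-tdT mice alone. Both calls were lost without at least 4 of the 8 mice in turn. Bleomycin raised 7 of 7 tested factors in the Acta2-tdT line as deposited and 2 of 7, Cebpb and Runx1, when scaled, beside 70.4% and 23.7% of all genes. Cebpe and Gfi1, factors of the granule-forming stages, stayed at or under 1.67 and 0.479 FPKM in all mice.

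Several genes of a list of ligands that recruit or mobilise neutrophils were at or near 0. Csf3, which encodes the ligand of Csf3r, was listed at 0 except in 2 Pdgfra-tdT saline mice, where it reached 0.111 FPKM, and Il17a was listed at 0 in all. Of 12 such genes, Cxcl12, Cxcl2 and Cxcl1 rose with bleomycin in the Acta2-tdT line as deposited, by 4.94 (SE 0.39), 1.72 (SE 0.36) and 1.15 (SE 0.28), with adjusted p of 1.14e-05, 0.00107 and 0.00286 by limma, and Il6 fell, 4 of 5 tested, beside 70.4% of all genes higher and 16.3% lower. When scaled, Cxcl12 was still higher at 2.43 (adjusted p = 2.98e-05), Il6 (-2.06, adjusted p = 2.47e-05) and Cxcl15 (-1.55, adjusted p = 0.00113) were lower, and Cxcl2 and Cxcl1 were at -0.47 and -0.16 without passing the test.

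Genes for receptors of the members' products, among them Tlr4 and Ager for calprotectin and Slc22a17 for lipocalin 2, gave no call between the lines with saline by limma, with 3 of 10 tested and 0 of them at an unadjusted p under 0.05. In the Acta2-tdT line 7 of 8 tested were higher with bleomycin as deposited, beside 70.4% of all genes. When scaled, 3 were higher and 2 (Fpr2 and Tlr4) lower, beside 23.7% and 32.1% of all genes. Tlr4 was at 0.338 to 1.21 FPKM with saline and 1.15 to 2.89 with bleomycin.

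The rest of the S100 cluster on chromosome 3, from which S100a8 and S100a9 come, also held genes that were high in Acta2-tdT mice. S100a6 was at 240.5 to 315 FPKM in Acta2-tdT and 18.0 to 28.6 in Pdgfra-tdT saline mice, a difference of 3.66 (SE 0.32, adjusted p = 0.00162), and it kept the call whichever mouse was left out. Of 8 tested genes of this cluster, S100a4, S100a6 and S100a11 were higher in Acta2-tdT saline mice as deposited, where 2.72% of all genes were. When scaled, S100a6 and S100a11 were higher, and 254 of all 8153 genes were called in either direction. Leaving out 1 mouse at a time, S100a4 kept the call in 5 of 8 fits and S100a11 in 1 of 8, with adjusted p of up to 0.0676 and 0.0885. With bleomycin S100a4 rose in the Acta2-tdT line from 23.1 to 33.4 FPKM to 530 to 1548, by 5.30 on the log2 scale as deposited and 2.34 when scaled (SE 0.43 and 0.34), while the scaled differences of S100a8 and S100a9 were -1.72 and -1.63.

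The genes whose pattern over the 16 mice lay closest to the mean of the 8 members were Mirt2 (root mean square log2 difference 0.432), H2-Q10 (0.629), Mmp9 (0.647), Myh11 (0.657) and Stfa2l1 (0.659), among 16597 candidates with a median of 1.93. Mmp9 encodes a gelatinase of neutrophil granules and Myh11 a myosin of smooth muscle. Mirt2, H2-Q10, Mmp9, Myh11 and Stfa2l1 were each higher in every Acta2-tdT mouse than in every Pdgfra-tdT mouse. So were the genes next in order, Ednra (0.682), Pdlim3 (0.685) and Prdm6 (0.730). All of them lay closer to the mean than every member but Lcn2 (0.581), as Camp, the next member, was at 0.845. Closeness to this mean thus went with the contrast of the lines and was not specific to neutrophil genes. Mmp9 was at 0.429 to 4.42 FPKM in Acta2-tdT saline, 10.2 to 15.1 in Acta2-tdT bleomycin, and at most 0.132 in Pdgfra-tdT mice. Myh11 was at 7.31 to 13.2, 14.4 to 20.7, 0.291 to 0.543 and 0.307 to 0.505 FPKM in the 4 groups, Acta2-tdT before Pdgfra-tdT and saline before bleomycin.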

How the data were processed

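RNA of tdTomato-positive cells was amplified with the SmartSeq2 protocol. By the submitters' notes, TopHat2 2.1.1 with Bowtie2 aligned the reads to mm10 (GRCm38) and Cufflinks 2.1.1 gave gene-level values. These FPKM of the authors were used as deposited. They carry no counts, so that the depth is unknown. Rows of a gene were summed, and 15 of 49452 genes with a Cufflinks status other than OK were left out. Scaled values bring 21950 nuclear protein-coding genes to 127594 FPKM in each mouse. Tests used limma 3.58.1 in R 4.3.3 (lmFit, eBayes with trend) on log2(FPKM + 1). This pseudocount makes differences of low genes smaller. Values of p were adjusted by Benjamini-Hochberg, with calls under 0.05. A gene was tested if 4 or more of the mice compared had an FPKM of 1 or more, also in the interaction of all 16 mice. Python 3.11.15 with pandas 2.3.3 computed the rest. The tables of all 16 mice differed from each other. The members and lists were chosen with earlier results of these data known. All 8 members were named. From each list and comparison up to 3 genes were named, those with the largest called difference whose groups did not overlap, and other named genes were chosen after their values were seen or stand beside a result they move with. The 5 genes closest to the members' mean pattern were named too. Alternatives were a pseudocount of 0.1, no filter, scaling, each mouse left out, all 16 mice in 1 fit, the replicate number as a block and the largest row per gene. The procedure was tested on simulated data. One of the list genes is not reported here by name.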

Additional observations from a re-analysis of the deposited data

Results flagged for a closer look

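Single mice stood far from the other 3 of their group for 4 of the 32 combinations of a member and a group, where chance gives about 1.6. Ngp (89.4 FPKM) and Ltf (15.01 FPKM) were high in Acta2-tdT bleomycin mouse 6, whose S100a8 was at 1418 FPKM, within the 699.7 to 3571 of its group. S100a9 was high in Pdgfra-tdT bleomycin mouse 5 (67.0 FPKM), where S100a8 was the highest of its group as well. Ltf was high in Pdgfra-tdT saline mouse 2, at 0.206 FPKM, a level near the bottom of the table. What set these mice apart was not tested.

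The effect of bleomycin differed between the lines in limma's interaction for 11 of 15 genes found mainly in neutrophils and 16 of 40 shared with other myeloid cells, as deposited, where it was positive for 36.6% of all genes. Scaled, 1 and 2 genes did, in the other direction. Of the 15 and 40 genes, only 3 and 19 passed the filter on the Pdgfra-tdT mice, and the others needed the Acta2-tdT mice to pass.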

How the results depend on the processing

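With scaled values the members' median was 2.96 between the lines with bleomycin and -1.41 for bleomycin in the Acta2-tdT line, where S100a8 (-1.72), S100a9 (-1.63), Retnlg (-1.73), Ngp (-1.94), Camp (-0.97), Ltf (-0.75), Lcn2 (-0.86) and Csf3r (-1.19) turned in sign. So did Cxcl1 between the lines with bleomycin (-0.15), and Cxcl2 (-0.47), Cxcl1 (-0.16), Pglyrp1 (-1.60), Cxcr2 (-1.27) and Trem3 (-1.24) for bleomycin in the Acta2-tdT line. Calls among genes found mainly in neutrophils and shared genes became 8 and 6 between the lines with bleomycin, 3 and 14 for bleomycin in the Acta2-tdT line, and 1 and 2 for the interaction. With a pseudocount of 0.1 the members' medians between the lines were 4.91 with saline and 6.43 with bleomycin, and interaction calls were 6 and 9. With saline, no filter left 1 and 2 calls between the lines and 1 fit of all 16 mice left 5 shared genes; that fit called 1 shared gene for bleomycin in the Pdgfra-tdT line. Leaving out 1 mouse gave medians of 2.99 to 4.20 between the lines with saline, 4.26 to 5.04 with bleomycin, 0.97 to 1.52 for bleomycin in Acta2-tdT and -0.20 to 0.35 in Pdgfra-tdT mice. Calls were then 2 to 6 and 2 to 20 between the lines with saline, and 0 to 1 and 0 to 5 for bleomycin in the Pdgfra-tdT line. The cause was not tested.

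Deviations of mice with the same number correlated at -0.09 to 0.16 with saline and -0.31 to 0.07 with bleomycin. The labels do not say whether a number marks a shared day or litter. So few mice cannot decide it, and pairing by number was not excluded. With the replicate number as a block, limma called 0 and 1 genes with saline, 7 of the first kind at an unadjusted p under 0.05, and 13 and 33 with bleomycin.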
